A study of Homo sapiens with 8 samples.

Results

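The genes described here are 40 genes of the NRF2 antioxidant response and of glutathione metabolism, followed across HepG2 cells treated with E2, PPT, DPN or vehicle. They were chosen by name for these pathways, with earlier results of these data known. Matched by symbol to the Entrez gene IDs of the count tables, all 40 were found among 26235 genes. Of these, 37 had enough reads to be tested. The other 3 were close to unread: GSTP1, a glutathione transferase, had 1 read over the 8 libraries, ME1, the cytosolic malic enzyme, had 3, and CBR3, a carbonyl reductase, had 8. Each tested member had at least 44 reads in each library, the lowest being GSTA2 with E2.

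NRF2, encoded by NFE2L2, is a transcription factor that the sensor protein KEAP1 normally hands to the proteasome. When reactive chemicals or oxidants modify KEAP1, NRF2 accumulates, pairs with a small MAF protein such as MAFG and binds antioxidant response elements near its targets. Those targets make and use glutathione, keep thioredoxin reduced, supply NADPH, store iron, break down heme and clear quinones, and in the liver they belong to the defence against reactive drugs and their metabolites.

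HepG2 is a cell line from a human hepatocellular carcinoma. The cells were held for 16 h in 0.1% FBS in phenol red-free medium and then treated for 48 h with 1 µM of 17β-estradiol (E2), of PPT, an agonist of estrogen receptor α, or of DPN, an agonist of estrogen receptor β, while control cells received the vehicle DMSO. E2 is a steroid, whereas PPT and DPN are synthetic nonsteroidal compounds. Each group had 2 libraries, and the total was 25103160 to 29670814 reads assigned to genes per library. The sources do not say whether the libraries of a group came from separate cultures, and the p-values therefore reflect the spread between these libraries alone, which may be technical. A single tumour line grown without its surrounding tissue is the model throughout.

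Levels are given as CPM, a read count scaled by TMM to a common library size, for library 1 and then library 2 of each group, and they compare libraries and not genes, since they are not per length. Differences are log2 fold changes (written log2 before the value) from edgeR's quasi-likelihood test with standard errors (SE), and p-values were adjusted by Benjamini-Hochberg over 15460 tested genes. A gene is said to have risen or fallen where its adjusted p was under 0.05. A stricter call used thresholds named in the study's methods, a log2 fold change over 1.5 in size and an adjusted p under 0.01. In bulk RNA, fewer cells carrying a transcript and less of it per cell cannot be told apart.

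Replicate libraries had correlations of log2 counts of 0.99 to 0.992, and edgeR's biological coefficient of variation, which may be technical here, was 6.8%. The chi-square per degree of freedom between the libraries of a group was 4.83 in control, 6.73 with E2, 5.17 with DPN and 11.3 with PPT. By that measure the PPT libraries differed most, while the fit shares its estimate of the spread over all groups. The 10 hepatocyte and hepatoma markers were all expressed, and their summed level ran from 70812 to 74237 CPM with E2, 34503 to 37845 CPM with PPT and 34553 to 35691 CPM with DPN, against 51429 to 52860 CPM in control cells. Among the markers of other cells, PTPRC, CD3E, COL1A1, COL3A1, DCN and KDR were at or below 0.211 CPM in every library. The leukocyte sum, nearly all of it LYZ, was 1504 to 1528 CPM with E2, 555 to 566 CPM with PPT and 1104 to 1142 CPM with DPN, against 1191 to 1214 CPM in control cells. The fibroblast and stellate sum, nearly all of it ACTA2 and PDGFRB, was 51.5 to 52.4 CPM with E2, 19.58 to 19.64 CPM with PPT and 14.2 to 15.8 CPM with DPN, against 33.2 to 33.4 CPM in control cells. The endothelium sum was 7.41 to 7.78 CPM with E2, 1.83 to 2.71 CPM with PPT and 2.91 to 3.16 CPM with DPN, against 4.03 to 4.26 CPM in control cells. With E2, CDH5 (log2 4.21, adjusted p = 2.08e-07), VWF (log2 2.66, adjusted p = 1.31e-05), PDGFRB (log2 1.05, adjusted p = 1.87e-05), ACTA2 (log2 0.55, adjusted p = 2.36e-05) and LYZ (log2 0.34, adjusted p = 1.42e-05) rose, and CD14 (log2 -1.94, adjusted p = 5.44e-07) and PECAM1 (log2 -1.65, adjusted p = 0.00012) fell. With PPT, LYZ (log2 -1.11, adjusted p = 1.03e-14), PDGFRB (log2 -1.28, adjusted p = 1.47e-05), ACTA2 (log2 -0.69, adjusted p = 3.34e-06) and PECAM1 (log2 -0.90, adjusted p = 0.0169) fell. With DPN, ACTA2 (log2 -1.36, adjusted p = 3.85e-11) and PECAM1 (log2 -0.73, adjusted p = 0.0452) fell, and CD14 (log2 0.91, adjusted p = 0.000658) rose. The part of these markers in the results below was not tested. With library-size scaling in place of TMM, the median of all genes shifted by -0.22 on the log2 scale for E2 against control, and rises made up 33.6% of all called genes instead of 49.3%.

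Sequences near the start sites are shown first, because the antioxidant response element is the site that NRF2 binds. The element was searched as TGACNNNGC on both strands, which reads GCNNNGTCA on the other one, in windows from 250 bases before to 50 bases after each start in RefSeq (GRCh38.p14). Windows were found for 32 of the 40 members, and GSR, PRDX1, PRDX6, HMOX1, FTH1, CBR3, TRIM16L and SOD1 are named only. The motif stood in 13 of 46 member windows (28.3%) and in at least 1 window of 12 members (37.5%), beside 13.3% of all 35116 windows and 16.1% of all 27305 genes. Of 16 matches, 3 overlapped TGANTCA, the AP-1 site, and these lay at GSTP1, ME1 and PIR. The stretches below come from members with an in-depth account further on, run 5′ to 3′ along the strand of the gene, and carry the match in capitals. TXNRD1 had a further match starting at position -8 and KEAP1 a further one at -54, which are not printed. A match describes letters and says nothing about binding.
GCLM, chr1:93909445-93909474 (minus strand), match starting at position -34 from the start site: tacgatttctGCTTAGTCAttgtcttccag
TXNRD1, chr12:104215670-104215699 (plus strand), match starting at position -99 from the start site: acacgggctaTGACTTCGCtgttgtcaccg
TXNRD1, chr12:104286920-104286949 (plus strand), match starting at position -102 from the start site: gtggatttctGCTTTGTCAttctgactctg
KEAP1, chr19:10502783-10502812 (minus strand), match starting at position -31 from the start site: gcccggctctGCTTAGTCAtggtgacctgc
GPX2, chr14:64942848-64942877 (minus strand), match starting at position -122 from the start site: acctgtttttGCTAAGTCAtcctggggatg
GSTA4, chr6:52995274-52995303 (minus strand), match starting at position -9 from the start site: ccgggaccgcTGACCTGGCgctttgtgcgg
EPHX1, chr1:225825266-225825295 (plus strand), match starting at position -78 from the start site: tgagattggcTGACTTGGCaggactgtgca
PGD, chr1:10398853-10398882 (plus strand), match starting at position -201 from the start site: cctcgccgggGCAATGTCAtctaggtgctc
MGST1, chr12:16347135-16347164 (plus strand), match starting at position 31 from the start site: ggggacatcgTGACAAAGCaaattgtctgg
GCLM, GPX2, KEAP1, PGD and the second TXNRD1 stretch read GCNNNGTCA along the strand of the gene, and GSTA4, EPHX1, MGST1 and the other TXNRD1 stretch read TGACNNNGC. NFE2L2, MAFG, GCLC, NQO1, SRXN1, GSTA1, GSTA2, FTL, SQSTM1 and OSGIN1 had no match in these windows, which cover only the stretch next to the start.

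More of the tested members rose than fell with PPT and with DPN, and more fell than rose with E2. With PPT, 23 members rose and 7 fell, and 7 did not pass the test, in a comparison where 22.9% of all tested genes rose and 22.8% fell. With DPN, 18 members rose and 7 fell, and 12 did not pass, beside 24.4% and 24.1% of all genes. With E2, 3 members rose and 28 fell, and 6 did not pass, beside 30.8% and 31.8% of all genes. The members that rose were 62.2% of those tested with PPT and 48.6% with DPN, and the members that fell were 75.7% with E2. Because the members were chosen with earlier results of these data known, these shares are not an independent test.

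Over the 37 tested members the median log2 fold change stood at -0.54 for E2, 0.66 for PPT and 0.26 for DPN, while the medians of all tested genes were -0.0041, 0.0075 and -0.0045. By the stricter thresholds, 3 members were lower with E2 and 0 higher, where 2.98% of all genes were lower and 7.15% higher. These were TXNRD1, GSTA1 and GSTA2. With PPT, 5 members were higher (GCLC, GCLM, MGST1, TXNRD1 and SRXN1) and 0 lower, where 1.9% of all genes were higher and 2.86% lower, and with DPN 4 were higher (GCLC, GCLM, TXNRD1 and SRXN1) and 0 lower, where 1.92% were higher and 2.02% lower. These comparisons share the control libraries, so the values of each are set side by side below.

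**Figure D1:**
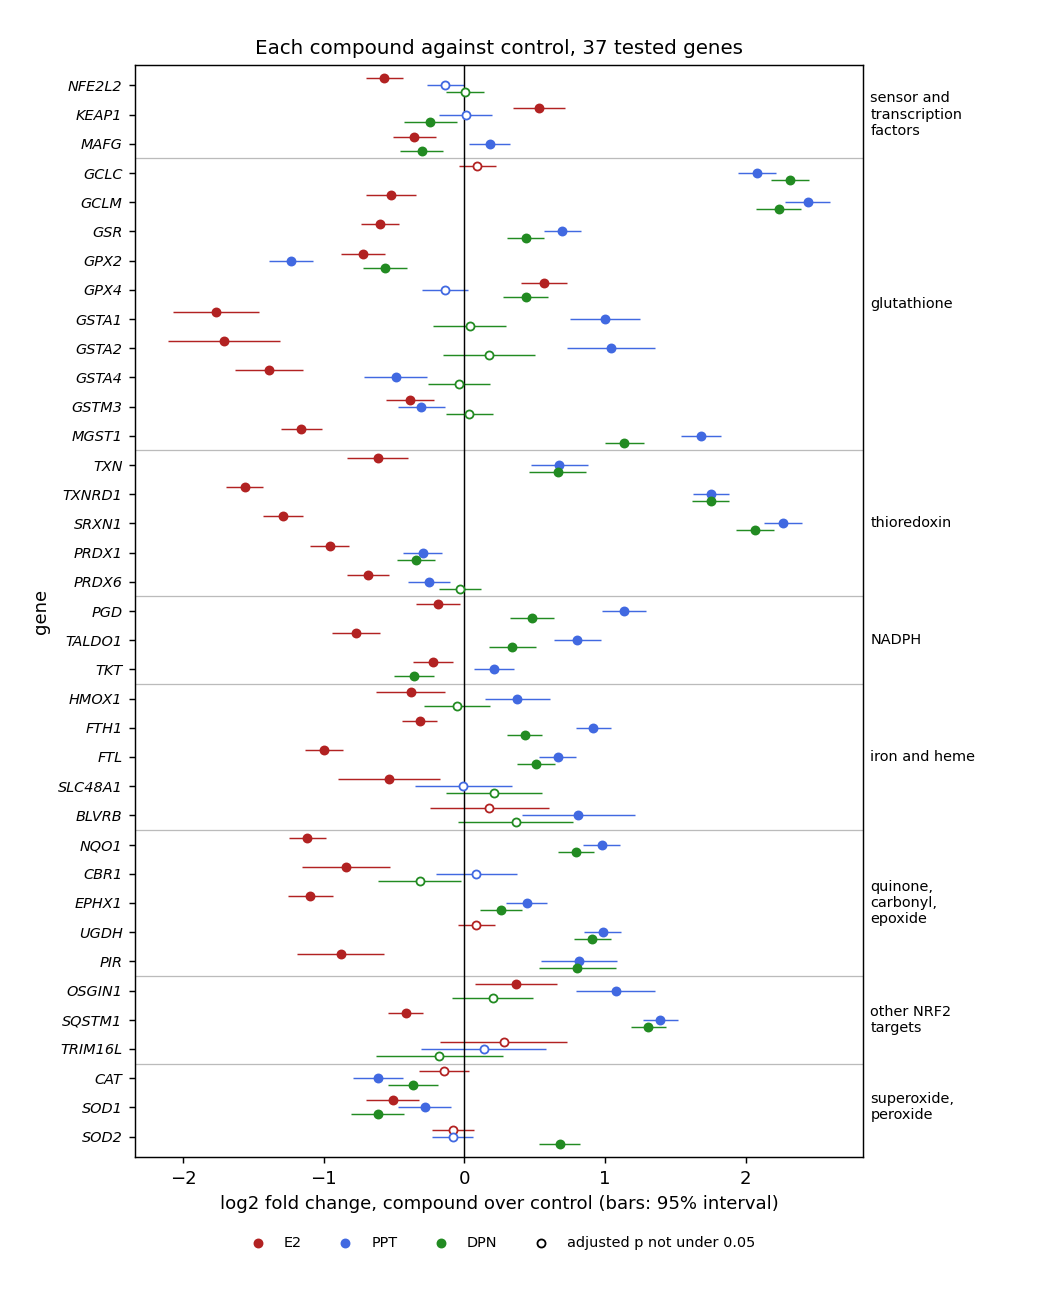
Log2 fold change of each tested member with E2, PPT and DPN over control, by role, with 95% intervals as bars; filled points passed an adjusted p of 0.05 and open points did not. TXNRD1, SRXN1, MGST1 and NQO1 lie left of 0 with E2 and right of 0 with PPT and DPN, and GCLC and GCLM lie near or past 2 with PPT and DPN.

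**Figure D2:**
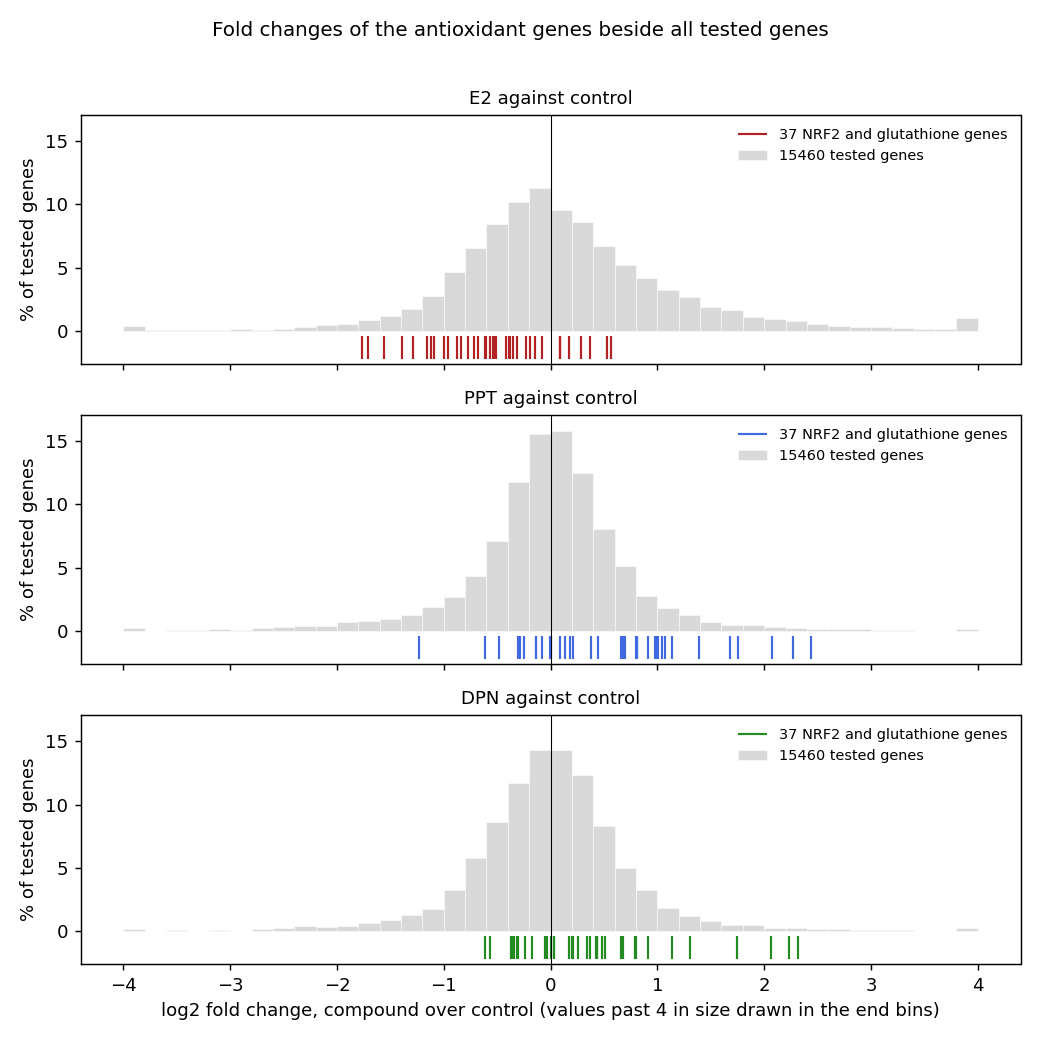
Log2 fold changes over control of the 37 tested members (ticks) under the distribution of all 15460 tested genes (grey bars, percent of tested genes per bin), for E2, PPT and DPN. The members' median is -0.54 with E2, 0.66 with PPT and 0.26 with DPN, and the medians of all genes lie within 0.01 of 0.

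The sensor and the transcription factors stand at the head of the pathway. NFE2L2 (Entrez 4780, chr2:177218667-177392756, minus strand, GRCh38), which encodes NRF2, had 194 and 188 CPM with E2, 251 and 263 CPM with PPT and 292 and 276 CPM with DPN, against 290.3 and 275 CPM in control cells. Both E2 libraries lay below all others, and the change with E2 was a log2 fold change of -0.57 (SE 0.065, adjusted p = 2.11e-08). With PPT it was log2 -0.14 (95% interval -0.27 to -0.0036, adjusted p = 0.0879) and with DPN log2 0.0046 (95% interval -0.13 to 0.14, adjusted p = 0.96), so the NRF2 transcript did not pass the test with either agonist. DESeq2 called it lower with PPT, at log2 -0.15 (adjusted p = 0.0477).

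KEAP1 (Entrez 9817, chr19:10486125-10503558, minus strand, GRCh38), the adaptor that holds NRF2 for degradation, had 60.7 and 53.8 CPM with E2, 38.1 and 41.6 CPM with PPT and 32.7 and 34.3 CPM with DPN, against 39.9 and 39.3 CPM in control cells. The E2 libraries were the highest of the 8 and the DPN libraries the lowest. KEAP1 rose with E2 by a log2 fold change of 0.53 (SE 0.09, adjusted p = 1.18e-05) and had log2 0.0087 (95% interval -0.18 to 0.19, adjusted p = 0.95) with PPT. With DPN it changed by a log2 fold change of -0.24 (SE 0.091, adjusted p = 0.0295), a call that was lost on leaving out any 1 control or DPN library, with values of -0.21 to -0.28. DESeq2 did not call it either (log2 -0.23, adjusted p = 0.0587).

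MAFG (Entrez 4097, chr17:81918270-81927735, minus strand, GRCh38), a small MAF partner of NRF2, had 62.6 and 60.2 CPM with E2, 90.2 and 87.6 CPM with PPT and 63.9 and 63.3 CPM with DPN, against 79.4 and 77.7 CPM in control cells. The PPT libraries were highest and did not overlap the control libraries, and the E2 and DPN libraries were below both. MAFG fell with E2 (log2 -0.35, adjusted p = 0.000161) and with DPN (log2 -0.30, adjusted p = 0.00104). Its change with PPT, a log2 fold change of 0.18 (SE 0.072, adjusted p = 0.0449), was lost on leaving out any 1 control, PPT or DPN library, with values of 0.16 to 0.20. The call was also lost with RLE scaling, with library-size scaling, with no filter and with only the 4 libraries compared, at log2 0.17 (adjusted p = 0.06 to 0.0864 by edgeR). DESeq2 did not call it either (log2 0.17, adjusted p = 0.0801).

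Among the glutathione genes, 10 of 11 were tested. With E2, 1 rose and 8 fell, with PPT 6 rose and 3 fell, and with DPN 5 rose and 1 fell. Their median log2 fold changes were -0.66, 0.85 and 0.30 in that order of compounds. Of all tested genes, 30.8% rose and 31.8% fell with E2, 22.9% and 22.8% with PPT, and 24.4% and 24.1% with DPN. Glutathione is built from glutamate, cysteine and glycine, and its first and rate-limiting step is carried out by glutamate-cysteine ligase.

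GCLC (Entrez 2729, chr6:53497341-53616970, minus strand, GRCh38), the catalytic subunit of that ligase, had 197 and 216 CPM with E2, 799 and 833 CPM with PPT and 943 and 978 CPM with DPN, against 197 and 189.8 CPM in control cells. All PPT and DPN libraries stood at about 4 times the control level or more, and the E2 libraries lay beside the control ones. GCLC rose 4.22-fold with PPT, a log2 fold change of 2.08 (SE 0.066, adjusted p = 2.58e-19), and 4.97-fold with DPN, a log2 fold change of 2.31 (SE 0.067, adjusted p = 6.36e-20). With E2 the change was log2 0.093 (95% interval -0.04 to 0.23, adjusted p = 0.218).

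GCLM (Entrez 2730, chr1:93885199-93909456, minus strand, GRCh38), the modifier subunit that raises the ligase's efficiency, whose match is printed above, had 18.8 and 18.9 CPM with E2, 140.4 and 154 CPM with PPT and 126 and 128 CPM with DPN, against 27.0 and 27.3 CPM in control cells. The groups did not overlap, with PPT and DPN above control and E2 below it. GCLM rose 5.42-fold with PPT, a log2 fold change of 2.44 (SE 0.078, adjusted p = 2.82e-19), and 4.70-fold with DPN, a log2 fold change of 2.23 (SE 0.078, adjusted p = 2.03e-18). With E2 it fell, a log2 fold change of -0.52 (SE 0.086, adjusted p = 7.92e-06), while its partner GCLC did not pass the test.

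GSR, glutathione reductase, which returns oxidized glutathione to its reduced form with NADPH, had 98.7 and 101 CPM with E2, 246 and 244 CPM with PPT and 202 and 206 CPM with DPN, against 148 and 154 CPM in control cells. The order was the same as for GCLM, with no overlap between the compounds and control. It fell with E2 (log2 -0.60, adjusted p = 9.7e-09) and rose with PPT (log2 0.70, adjusted p = 8.11e-10) and with DPN (log2 0.43, adjusted p = 2.59e-06).

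The glutathione peroxidases went their own ways. GPX2 (Entrez 2877, chr14:64939152-64942746, minus strand, GRCh38), a selenoenzyme known from the gut epithelium whose match is printed above, had 118 and 98.9 CPM with E2, 76.5 and 75.2 CPM with PPT and 123 and 118 CPM with DPN, against 183 and 174 CPM in control cells. All 6 treated libraries were below both control libraries, and GPX2 fell with E2 (log2 -0.72, adjusted p = 4.79e-09), with PPT (log2 -1.23, adjusted p = 2.53e-13) and with DPN (log2 -0.57, adjusted p = 4.91e-07). GPX4, which reduces lipid hydroperoxides in membranes and so protects from ferroptosis, had 381 and 403 CPM with E2, 249 and 235 CPM with PPT and 392 and 326 CPM with DPN, against 285 and 246 CPM in control cells. It rose with E2 (log2 0.56, adjusted p = 7.43e-07) and with DPN (log2 0.44, adjusted p = 4.7e-05), and had log2 -0.14 (95% interval -0.30 to 0.027, adjusted p = 0.171) with PPT, where 1 of the PPT libraries lay between the control libraries. Without control library 2, GPX4 was lower with PPT, at log2 -0.25 (adjusted p = 0.039 by edgeR).

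The alpha class glutathione transferases GSTA1 and GSTA2 are known as abundant detoxifying enzymes of hepatocytes. Their transcripts are near-identical, so their reads may have been split between them and their separate values are uncertain. GSTA1 (Entrez 2938, chr6:52791371-52803860, minus strand, GRCh38) had 3.31 and 4.25 CPM with E2, 25.8 and 25.8 CPM with PPT and 13.3 and 13.1 CPM with DPN, against 13.2 and 12.6 CPM in control cells. GSTA2 (Entrez 2939, chr6:52750087-52763475, minus strand, GRCh38) had 1.97 and 2.44 CPM with E2, 15.7 and 14.1 CPM with PPT and 8.04 and 8.28 CPM with DPN, against 7.90 and 6.54 CPM in control cells. For both genes the E2 libraries were lowest and the PPT libraries highest, without overlap, and the DPN libraries were close to control.

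GSTA1 fell with E2 (log2 -1.76, adjusted p = 7.41e-11) and rose with PPT (log2 1.002, adjusted p = 1.11e-07), while its value with DPN was log2 0.036 (95% interval -0.22 to 0.29, adjusted p = 0.837). GSTA2 fell with E2 (log2 -1.71, adjusted p = 1.78e-08), rose with PPT (log2 1.04, adjusted p = 2.67e-06) and had log2 0.17 (95% interval -0.15 to 0.50, adjusted p = 0.384) with DPN. GSTA4 (Entrez 2941, chr6:52977948-52995304, minus strand, GRCh38), which acts on the lipid peroxidation product 4-hydroxynonenal, had 10.5 and 10.3 CPM with E2, 18.0 and 20.7 CPM with PPT and 24.9 and 27.9 CPM with DPN, against 26.7 and 27.5 CPM in control cells. It fell with E2 (log2 -1.39, adjusted p = 7.82e-11) and with PPT (log2 -0.49, adjusted p = 0.000574), so that PPT moved it the other way from GSTA1, and with DPN its value was log2 -0.039 (95% interval -0.26 to 0.18, adjusted p = 0.794).

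MGST1 (Entrez 4257, chr12:16347142-16609259, plus strand, GRCh38), a transferase and peroxidase of the endoplasmic reticulum and outer mitochondrial membranes, had 54.1 and 53.4 CPM with E2, 376 and 395 CPM with PPT and 269 and 258 CPM with DPN, against 126 and 114 CPM in control cells. The PPT libraries were highest, the DPN libraries next and the E2 libraries lowest, with no overlap. MGST1 fell with E2 (log2 -1.16, adjusted p = 1.15e-13) and rose 3.21-fold with PPT, a log2 fold change of 1.68 (SE 0.069, adjusted p = 4.6e-17), and 2.20-fold with DPN, a log2 fold change of 1.14 (SE 0.068, adjusted p = 1.52e-13). GSTM3, a mu class transferase, fell with E2 (log2 -0.39, adjusted p = 0.000203) and had log2 0.036 (95% interval -0.13 to 0.20, adjusted p = 0.744) with DPN. Its fall with PPT, a log2 fold change of -0.31 (SE 0.081, adjusted p = 0.00278), was lost without control library 2, at -0.18 (adjusted p = 0.151 by edgeR).

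**Figure D3:**
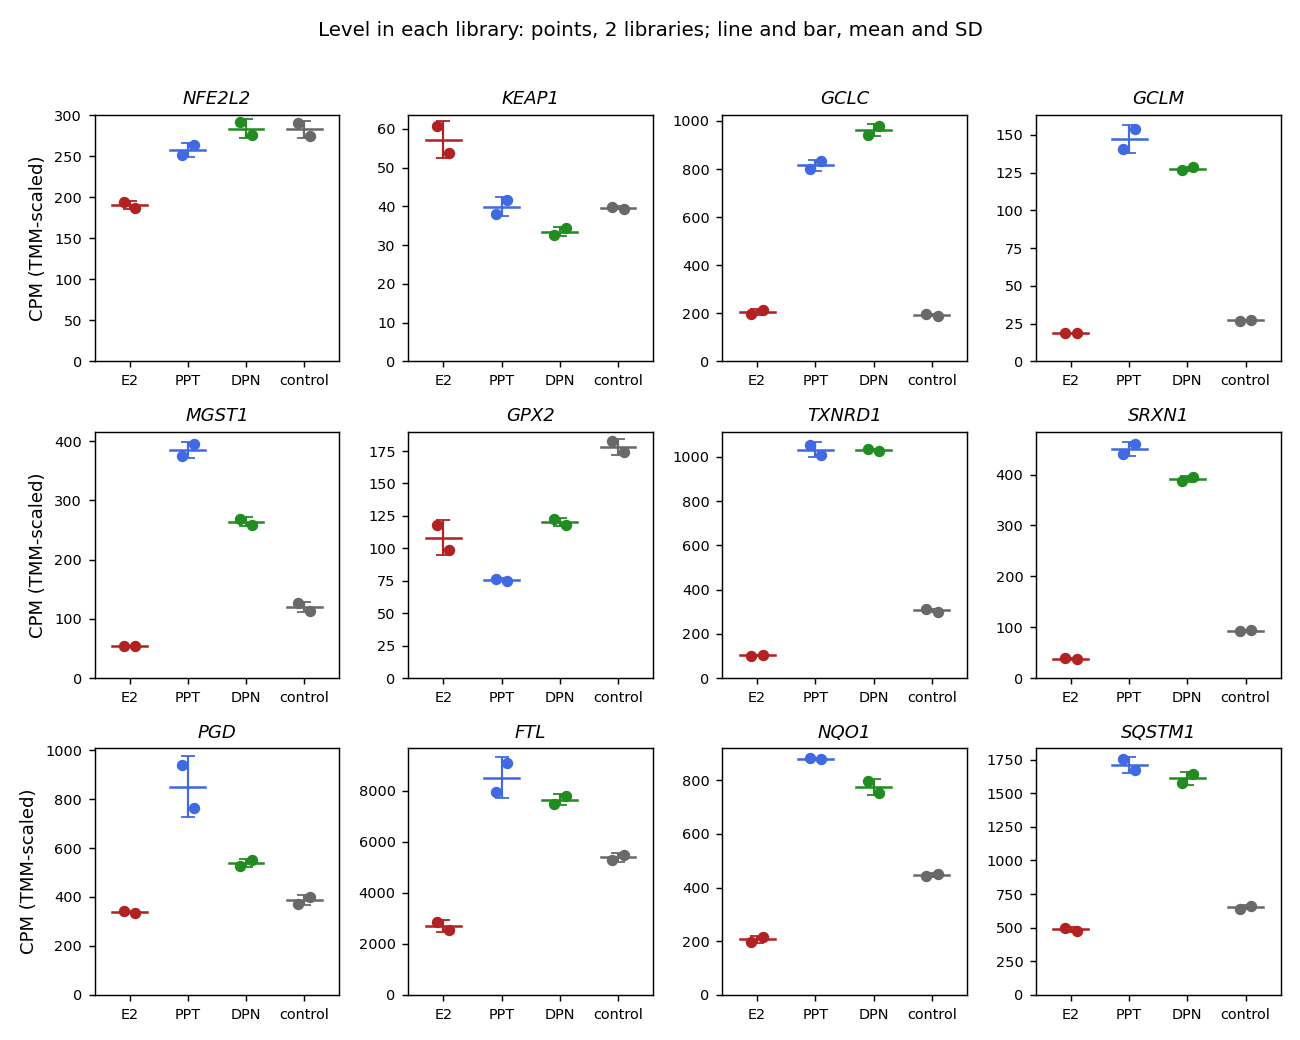
Level in CPM (linear axis from 0) of 12 of the members in each of the 8 libraries, E2, PPT and DPN left of control. Points are libraries, and lines and bars are the mean and SD of each group (n = 2). For GCLM, TXNRD1, SRXN1, MGST1 and NQO1 both PPT and both DPN libraries are above, and both E2 libraries below, the control libraries.

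The thioredoxin genes all fell with E2, 5 of 5, with a median of -0.96. With PPT, 3 rose and 2 fell, and with DPN 3 rose and 1 fell. Among all tested genes, 31.8% fell with E2, 22.9% rose and 22.8% fell with PPT, and 24.4% rose and 24.1% fell with DPN. Thioredoxin reduces disulfides in proteins and peroxiredoxins, and is itself kept reduced by thioredoxin reductase and NADPH.

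TXNRD1 (Entrez 7296, chr12:104215779-104350307, plus strand, GRCh38), the cytosolic thioredoxin reductase, a selenoprotein with 2 matches printed above, had 102 and 106 CPM with E2, 1056 and 1008 CPM with PPT and 1034 and 1027 CPM with DPN, against 312 and 301 CPM in control cells. The PPT and DPN libraries overlapped each other at more than 3 times the control level, and the E2 libraries were far below control. It fell 2.95-fold with E2, a log2 fold change of -1.56 (SE 0.064, adjusted p = 1.64e-17), and rose 3.37-fold with PPT, a log2 fold change of 1.75 (SE 0.062, adjusted p = 2.78e-18), and 3.36-fold with DPN, a log2 fold change of 1.75 (SE 0.062, adjusted p = 3.09e-18).

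SRXN1 (Entrez 140809, chr20:646615-653200, minus strand, GRCh38), sulfiredoxin, which repairs peroxiredoxins that have been overoxidized, had 39.3 and 37.3 CPM with E2, 440.3 and 459 CPM with PPT and 388 and 395 CPM with DPN, against 93.1 and 93.9 CPM in control cells. The groups did not overlap. SRXN1 fell 2.44-fold with E2, a log2 fold change of -1.29 (SE 0.07, adjusted p = 6.61e-15), and rose 4.81-fold with PPT, a log2 fold change of 2.27 (SE 0.066, adjusted p = 5.2e-20), and 4.18-fold with DPN, a log2 fold change of 2.07 (SE 0.066, adjusted p = 3.35e-19). TXN, thioredoxin itself, passed the test with all 3 compounds, with log2 -0.62 (adjusted p = 1.3e-05) with E2, log2 0.68 (adjusted p = 2.6e-06) with PPT and log2 0.66 (adjusted p = 3.25e-06) with DPN.

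PRDX1 and PRDX6 are peroxiredoxins, which remove hydrogen peroxide, and neither rose with any of the 3 compounds. PRDX1 had 291 and 267 CPM with E2, 417 and 464 CPM with PPT and 434 and 418 CPM with DPN, against 548 and 533 CPM in control cells, and both control libraries were above all 6 treated ones. It fell with E2 (log2 -0.96, adjusted p = 1.89e-12), with PPT (log2 -0.30, adjusted p = 0.000578) and with DPN (log2 -0.34, adjusted p = 0.000102). PRDX6, which also has phospholipase activity, fell with E2 (log2 -0.68, adjusted p = 5.77e-09) and had log2 -0.03 (95% interval -0.18 to 0.12, adjusted p = 0.762) with DPN. Its fall with PPT, a log2 fold change of -0.25 (SE 0.072, adjusted p = 0.00506), was lost without control library 1, at -0.16 (adjusted p = 0.17 by edgeR), and without PPT library 1, at -0.19 (adjusted p = 0.055). TXN and PRDX1 have processed pseudogenes that could share their reads.

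The tested genes of the NADPH group belong to the pentose phosphate pathway. All 3 of them fell with E2 and rose with PPT, and with DPN 2 rose and 1 fell. Among all tested genes, 31.8% fell with E2, 22.9% rose with PPT, and 24.4% rose and 24.1% fell with DPN. PGD (Entrez 5226, chr1:10398592-10420511, plus strand, GRCh38), 6-phosphogluconate dehydrogenase, which makes NADPH, had 343 and 336 CPM with E2, 939 and 762 CPM with PPT and 528 and 552 CPM with DPN, against 372 and 402 CPM in control cells. The PPT libraries were highest and the DPN libraries next, while the E2 libraries were lowest, and no groups overlapped. PGD rose 2.20-fold with PPT, a log2 fold change of 1.14 (SE 0.076, adjusted p = 1.07e-12), and with DPN (log2 0.48, adjusted p = 5.77e-06).

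The change of PGD with E2, a log2 fold change of -0.19 (SE 0.075, adjusted p = 0.0317), was lost without control library 2, at -0.16, without E2 library 1, at -0.21, and without E2 library 2, at -0.18. It was also lost with the filter set to 1 CPM in 2 libraries, at -0.16 (adjusted p = 0.0641 by edgeR). TALDO1, transaldolase, had log2 -0.77 (adjusted p = 9.34e-09) with E2, log2 0.80 (adjusted p = 4.89e-09) with PPT and log2 0.34 (adjusted p = 0.00108) with DPN. TKT, transketolase, had 134 and 124 CPM with E2, 169 and 180.0 CPM with PPT and 114 and 121 CPM with DPN, against 151 and 150.5 CPM in control cells. TKT fell with DPN (log2 -0.36, adjusted p = 9.84e-05), which set it apart from PGD and TALDO1 in that comparison. Its fall with E2, a log2 fold change of -0.23 (SE 0.069, adjusted p = 0.00614), was lost without E2 library 2, at -0.17 (adjusted p = 0.0822), and its rise with PPT, a log2 fold change of 0.21 (SE 0.069, adjusted p = 0.0137), without either control library or PPT library 2, at 0.16 to 0.21 (adjusted p = 0.0704 to 0.0939 by edgeR).

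Of the 5 iron and heme genes, 4 fell with E2, 4 rose with PPT and 2 rose with DPN. Among all tested genes, 31.8% fell with E2, 22.9% rose with PPT and 24.4% rose with DPN. HMOX1 (Entrez 3162, chr22:35380361-35394214, plus strand, GRCh38), heme oxygenase, which opens heme to biliverdin, iron and carbon monoxide and is often taken as the sign of an NRF2 response, had 16.0 and 14.8 CPM with E2, 25.6 and 26.4 CPM with PPT and 17.2 and 21.4 CPM with DPN, against 19.7 and 20.4 CPM in control cells. The E2 libraries were lowest and the PPT libraries highest, and the DPN libraries lay on both sides of the control ones. HMOX1 had log2 -0.055 (95% interval -0.29 to 0.18, adjusted p = 0.724) with DPN. Its fall with E2, a log2 fold change of -0.38 (SE 0.12, adjusted p = 0.00666), was lost without E2 library 2, at -0.33 (adjusted p = 0.0606), and its rise with PPT, a log2 fold change of 0.38 (SE 0.11, adjusted p = 0.00752), without control library 1, at 0.35 (adjusted p = 0.063 by edgeR).

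Ferritin stores iron in a shell of heavy and light chains. FTL (Entrez 2512, chr19:48965309-48966879, plus strand, GRCh38), the light chain, had 2849 and 2529.9 CPM with E2, 7952 and 9083 CPM with PPT and 7489.6 and 7807 CPM with DPN, against 5272 and 5496 CPM in control cells. FTH1, the heavy chain, had 1544 and 1383 CPM with E2, 3477 and 3393 CPM with PPT and 2475 and 2428 CPM with DPN, against 1818 and 1827 CPM in control cells. For both chains the PPT and DPN libraries were above control and the E2 libraries below, without overlap.

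FTL fell with E2 (log2 -1.001, adjusted p = 3.91e-13) and rose with PPT (log2 0.66, adjusted p = 2.79e-09) and with DPN (log2 0.51, adjusted p = 3.01e-07). FTH1 fell with E2 (log2 -0.32, adjusted p = 5.35e-05) and rose with PPT (log2 0.91, adjusted p = 9.34e-13) and with DPN (log2 0.43, adjusted p = 1.23e-06). Both chains have processed pseudogenes, which makes their counts uncertain. BLVRB, biliverdin reductase B, rose with PPT (log2 0.81, adjusted p = 0.0012), and had log2 0.18 (95% interval -0.25 to 0.60, adjusted p = 0.467) with E2 and log2 0.37 (95% interval -0.044 to 0.77, adjusted p = 0.134) with DPN. SLC48A1, a heme transporter, had log2 -0.0085 (95% interval -0.35 to 0.33, adjusted p = 0.974) with PPT and log2 0.21 (95% interval -0.13 to 0.55, adjusted p = 0.305) with DPN, where it was called higher without DPN library 1, at log2 0.44 (adjusted p = 0.0472 by edgeR). Its fall with E2, a log2 fold change of -0.54 (SE 0.18, adjusted p = 0.0101), was lost without E2 library 1, at -0.49 (adjusted p = 0.0626 by edgeR).

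Among the quinone, carbonyl and epoxide enzymes, 5 of 6 were tested, and 4 fell with E2, 4 rose with PPT and 4 rose with DPN. The shares of all tested genes were 31.8% falling with E2, 22.9% rising with PPT and 24.4% rising with DPN. NQO1 (Entrez 1728, chr16:69706996-69726668, minus strand, GRCh38), the quinone reductase by which NRF2 activity is commonly read, had 197 and 216 CPM with E2, 883 and 878 CPM with PPT and 796 and 753 CPM with DPN, against 443 and 452 CPM in control cells. The E2 libraries stood far below control and the PPT and DPN libraries well above it, without overlap. NQO1 fell 2.17-fold with E2, a log2 fold change of -1.12 (SE 0.064, adjusted p = 2.51e-14), and rose 1.97-fold with PPT, a log2 fold change of 0.98 (SE 0.063, adjusted p = 6.21e-13), and 1.73-fold with DPN, a log2 fold change of 0.79 (SE 0.063, adjusted p = 5.07e-11).

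EPHX1 (Entrez 2052, chr1:225810124-225845563, plus strand, GRCh38), the microsomal epoxide hydrolase, had 37.5 and 37.0 CPM with E2, 106 and 111 CPM with PPT and 97.7 and 93.1 CPM with DPN, against 77.5 and 81.7 CPM in control cells. It fell with E2 (log2 -1.09, adjusted p = 1.59e-12) and rose with PPT (log2 0.44, adjusted p = 1.17e-05). Its rise with DPN, a log2 fold change of 0.26 (SE 0.072, adjusted p = 0.00372), was lost without control library 1, at 0.22 (adjusted p = 0.0687), and without DPN library 1, at 0.23 (adjusted p = 0.0556 by edgeR). The E2 libraries were lowest and the PPT libraries highest, without overlap.

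UGDH, which makes the UDP-glucuronate used in glucuronidation, had 478 and 534 CPM with E2, 952 and 934 CPM with PPT and 902 and 888 CPM with DPN, against 485 and 469 CPM in control cells. PPT and DPN libraries were close to each other and well above control, and UGDH rose with PPT (log2 0.98, adjusted p = 6.35e-13) and with DPN (log2 0.91, adjusted p = 3.9e-12), but with E2 it had log2 0.085 (95% interval -0.045 to 0.22, adjusted p = 0.248). PIR, pirin, an iron-binding nuclear protein, fell with E2 (log2 -0.88, adjusted p = 1.34e-05) and rose with PPT (log2 0.81, adjusted p = 1.15e-05) and with DPN (log2 0.80, adjusted p = 1.25e-05). CBR1, a carbonyl reductase, fell with E2 (log2 -0.84, adjusted p = 2.94e-05) and had log2 0.085 (95% interval -0.20 to 0.37, adjusted p = 0.656) with PPT and log2 -0.32 (95% interval -0.61 to -0.024, adjusted p = 0.0684) with DPN, where library-size scaling gave a fall, at log2 -0.35 (adjusted p = 0.0474 by edgeR).

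Of the other NRF2 targets, SQSTM1 (Entrez 8878, chr5:179806398-179838078, plus strand, GRCh38), the autophagy receptor p62, which also binds KEAP1, had 499.9 and 476 CPM with E2, 1753 and 1671 CPM with PPT and 1579 and 1647 CPM with DPN, against 641 and 663 CPM in control cells. Both agonists gave levels well above control and E2 a level below it, without overlap. SQSTM1 fell with E2 (log2 -0.42, adjusted p = 1.1e-06) and rose 2.63-fold with PPT, a log2 fold change of 1.39 (SE 0.061, adjusted p = 1.99e-16), and 2.48-fold with DPN, a log2 fold change of 1.31 (SE 0.061, adjusted p = 7.67e-16).

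OSGIN1 (Entrez 29948, chr16:83931311-83966332, plus strand, GRCh38), an oxidative stress growth inhibitor, had 12.7 and 10.7 CPM with E2, 20.9 and 17.3 CPM with PPT and 10.7 and 10.2 CPM with DPN, against 9.26 and 8.88 CPM in control cells. It rose 2.10-fold with PPT, a log2 fold change of 1.07 (SE 0.14, adjusted p = 2.15e-07), and had log2 0.20 (95% interval -0.088 to 0.49, adjusted p = 0.249) with DPN. With E2 it gave a log2 fold change of 0.37 (SE 0.14, adjusted p = 0.027), a call lost without either control library or E2 library 1, at 0.24 to 0.39. The call was also lost with library-size scaling, at 0.14 (adjusted p = 0.39 by edgeR), with no filter, at 0.32 (adjusted p = 0.0596 by edgeR), and by DESeq2, at 0.37 (adjusted p = 0.075). TRIM16L, a copy of TRIM16 that may share its reads, did not pass the test with any compound, at log2 0.28 (95% interval -0.17 to 0.73, adjusted p = 0.272) with E2, log2 0.14 (95% interval -0.31 to 0.58, adjusted p = 0.641) with PPT and log2 -0.18 (95% interval -0.63 to 0.28, adjusted p = 0.538) with DPN.

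Of the 3 enzymes that remove superoxide and hydrogen peroxide directly, 0 rose and 1 fell with E2, 0 rose and 2 fell with PPT, and 1 rose and 2 fell with DPN. The shares of all tested genes, rising and then falling, were 30.8% and 31.8% with E2, 22.9% and 22.8% with PPT, and 24.4% and 24.1% with DPN. A group of 3 genes is too small to read these counts as the behaviour of a group. CAT, catalase of the peroxisome, had 49.6 and 50.9 CPM with E2, 36.1 and 36.7 CPM with PPT and 45.5 and 40.7 CPM with DPN, against 57.1 and 54.0 CPM in control cells. It fell with PPT (log2 -0.61, adjusted p = 1.45e-06) and with DPN (log2 -0.37, adjusted p = 0.000824), and had log2 -0.15 (95% interval -0.32 to 0.031, adjusted p = 0.145) with E2, where library-size scaling gave a fall, at log2 -0.37 (adjusted p = 0.000498 by edgeR). SOD2, the manganese superoxide dismutase of mitochondria, had 92.7 and 99.4 CPM with E2, 92.0 and 99.5 CPM with PPT and 169 and 155 CPM with DPN, against 102 and 100.5 CPM in control cells, and only the DPN libraries stood away from the rest. SOD2 rose with DPN by a log2 fold change of 0.68 (SE 0.072, adjusted p = 1.05e-08), and had log2 -0.079 (95% interval -0.23 to 0.07, adjusted p = 0.352) with E2 and log2 -0.084 (95% interval -0.23 to 0.064, adjusted p = 0.364) with PPT. With library-size scaling SOD2 fell with E2, at log2 -0.30 (adjusted p = 0.000708 by edgeR). SOD1, the cytosolic copper and zinc enzyme, fell with E2 (log2 -0.51, adjusted p = 2.6e-05) and with DPN (log2 -0.62, adjusted p = 2.8e-06). Its fall with PPT, a log2 fold change of -0.28 (SE 0.091, adjusted p = 0.0124), was lost without control library 2, at -0.26 (adjusted p = 0.0746), and without PPT library 2, at -0.082 (adjusted p = 0.448 by edgeR).

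The 3 pairs of compounds were compared directly at the same dose and time. Against PPT, E2 gave 4 members higher and 30 lower, beside 30.1% and 32.1% of all tested genes, with a median over members of -0.90 and over all genes of -0.0075. Against DPN, E2 gave 2 higher and 27 lower, beside 32.6% and 31.3% of all genes, with a median of -0.75 over members and 0.0346 over all genes. The 2 that were higher were KEAP1 and CAT, and the count was 1 without control library 2, E2 library 1 or DPN library 2. The call of CAT (log2 0.22, adjusted p = 0.0291) was lost without control library 2, either E2 library or DPN library 2, at log2 0.13 to 0.23. It was also lost with library-size scaling (log2 0.024, adjusted p = 0.823 by edgeR), with no filter (log2 0.17, adjusted p = 0.12 by edgeR) and by DESeq2 (log2 0.21, adjusted p = 0.0603). By the stricter thresholds, 13 members were lower with E2 than with PPT (3.03% of all genes) and 11 were lower with E2 than with DPN (3.27% of all genes), and none was higher in either comparison, where 7.85% and 7.43% of all genes were.

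SRXN1 and TXNRD1 had the widest gaps of the tested members in both of these comparisons. SRXN1 was 11.8-fold lower with E2 than with PPT, a log2 fold change of -3.56 (SE 0.072, adjusted p = 2.24e-24), and 10.2-fold lower with E2 than with DPN, a log2 fold change of -3.35 (SE 0.072, adjusted p = 2.09e-23). TXNRD1 was 9.95-fold lower with E2 than with PPT, a log2 fold change of -3.31 (SE 0.067, adjusted p = 2.24e-24), and 9.93-fold lower with E2 than with DPN, a log2 fold change of -3.31 (SE 0.067, adjusted p = 8.26e-24). GCLM, MGST1 and GCLC gave, for E2 against PPT, log2 -2.96 (adjusted p = 2.82e-21), log2 -2.84 (adjusted p = 5.25e-22) and log2 -1.98 (adjusted p = 1.18e-19), and for E2 against DPN log2 -2.75 (adjusted p = 2.25e-20), log2 -2.30 (adjusted p = 7.08e-20) and log2 -2.22 (adjusted p = 2.25e-20).

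NQO1 was lower with E2 than with PPT (log2 -2.09, adjusted p = 3.15e-20), and lower with E2 than with DPN (log2 -1.91, adjusted p = 3.98e-19). KEAP1 ran the other way and was higher with E2 than with PPT (log2 0.52, adjusted p = 1.5e-05) and higher with E2 than with DPN (log2 0.77, adjusted p = 3.24e-08). GPX4 was higher with E2 than with PPT (log2 0.70, adjusted p = 1.92e-08), but with E2 against DPN it had log2 0.13 (95% interval -0.034 to 0.29, adjusted p = 0.159). SOD2 did not pass the test between E2 and PPT, at log2 0.005 (95% interval -0.14 to 0.15, adjusted p = 0.959), and was lower with E2 than with DPN (log2 -0.76, adjusted p = 7.08e-10).

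Between the nonsteroidal agonists, DPN gave 8 members higher and 18 lower than PPT, beside 19.1% and 18.8% of all genes. None passed the stricter thresholds in either direction, where 0.957% of all genes were higher and 0.414% lower. Without DPN library 2, the count of members lower with DPN was 11. GSTA1 was lower with DPN than with PPT (log2 -0.97, adjusted p = 4.88e-07), as were OSGIN1 (log2 -0.87, adjusted p = 9.05e-06), PGD (log2 -0.65, adjusted p = 1.09e-07) and MGST1 (log2 -0.55, adjusted p = 2.97e-07). SOD2 was higher with DPN (log2 0.76, adjusted p = 4.56e-09), as were GPX2 (log2 0.67, adjusted p = 1.16e-07) and GPX4 (log2 0.57, adjusted p = 2.31e-06).

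Some targets that rose with both agonists were lower with DPN than with PPT, such as FTH1 (log2 -0.49, adjusted p = 3.72e-07), TALDO1 (log2 -0.46, adjusted p = 5.11e-05) and GSR (log2 -0.26, adjusted p = 0.00193). SRXN1 (log2 -0.20, adjusted p = 0.0123) and NQO1 (log2 -0.18, adjusted p = 0.0211) were too. The SRXN1 call was lost without PPT library 2 or either DPN library, at log2 -0.17 to -0.22, and the NQO1 call without DPN library 2, at log2 -0.15. Several others that rose with both agonists did not pass the test between them. FTL was among these but was lower with DPN under library-size scaling (log2 -0.17, adjusted p = 0.0343 by edgeR). It was also lower with no filter (log2 -0.15, adjusted p = 0.00875 by edgeR), and had log2 -0.25 without PPT library 1. TXNRD1 differed by log2 -0.0019 (95% interval -0.13 to 0.12, adjusted p = 0.985) with DPN over PPT, TXN by log2 -0.013 (95% interval -0.21 to 0.19, adjusted p = 0.934), SQSTM1 by log2 -0.086 (95% interval -0.21 to 0.037, adjusted p = 0.273), UGDH by log2 -0.076 (95% interval -0.21 to 0.054, adjusted p = 0.371) and FTL by log2 -0.16 (95% interval -0.29 to -0.022, adjusted p = 0.0613). GCLC was higher with DPN (log2 0.24, adjusted p = 0.00405), a call lost without DPN library 2, at log2 0.21 (adjusted p = 0.0612). GCLM was lower with DPN (log2 -0.21, adjusted p = 0.0233), a call lost without PPT library 2 or either DPN library, at log2 -0.14 to -0.22. DESeq2 did not call it either (log2 -0.18, adjusted p = 0.0558).

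**Figure D4:**
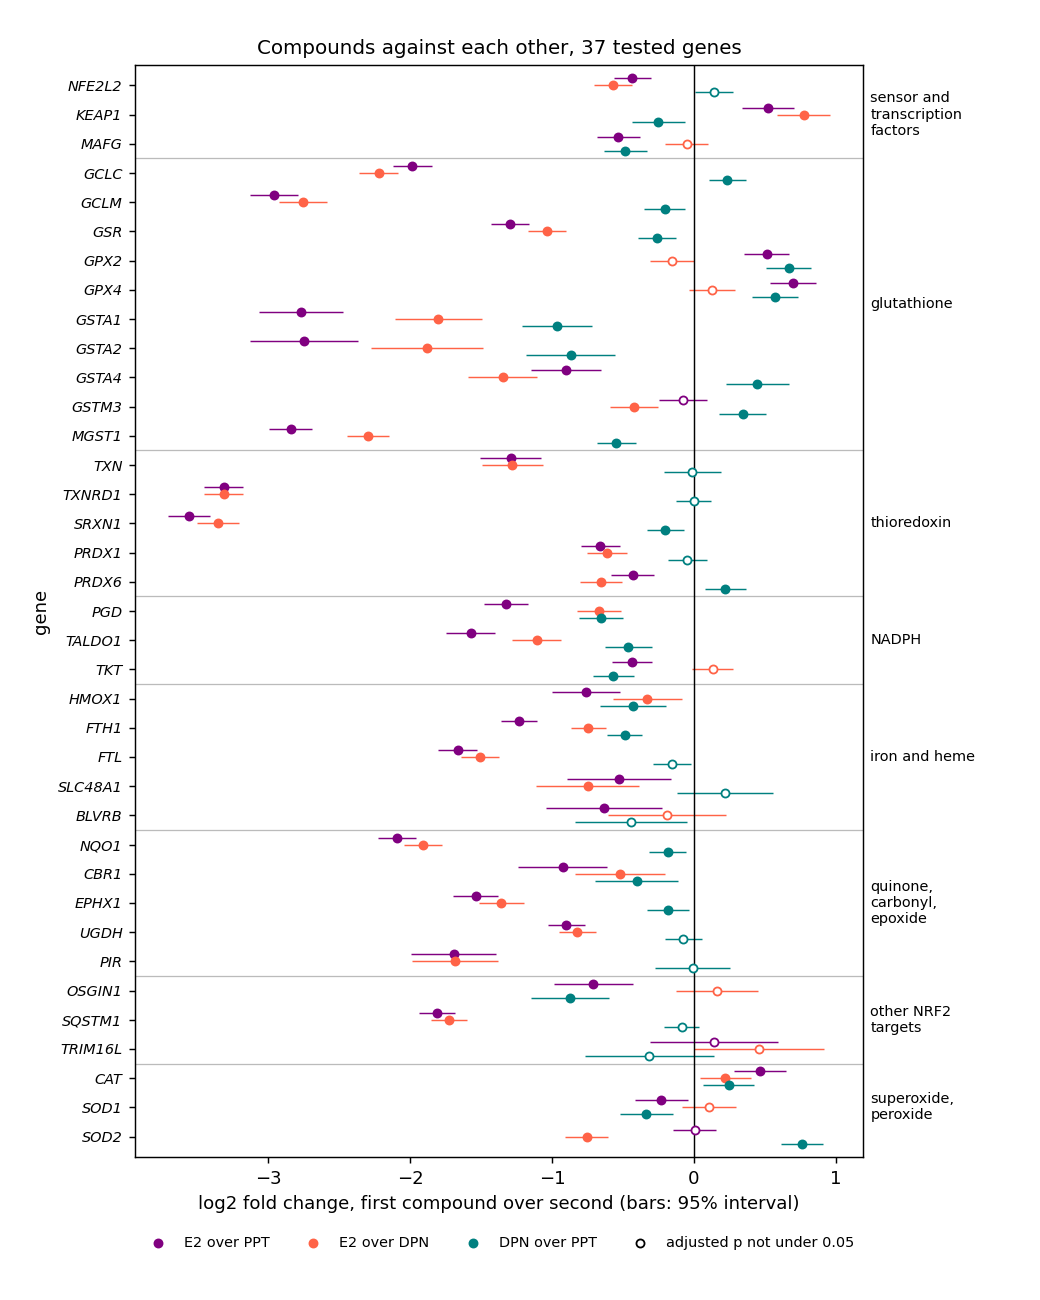
Log2 fold change of each tested member for E2 over PPT, E2 over DPN and DPN over PPT, by role, with 95% intervals as bars; filled points passed an adjusted p of 0.05. SRXN1 and TXNRD1 lie past -3 in both comparisons of E2, and for DPN over PPT all members lie within 1 of 0.

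A wider list of 68 genes of the same pathways, none of them among the 40 and 67 of them tested, was counted in the same way. With E2, 15 rose and 41 fell, with PPT 25 rose and 17 fell, and with DPN 27 rose and 17 fell, with median log2 fold changes of -0.36, 0.02 and 0.05. Of all tested genes, 30.8% rose and 31.8% fell with E2, 22.9% rose and 22.8% fell with PPT, and 24.4% rose and 24.1% fell with DPN. The 6 of them with the smallest unadjusted p in any compound against control were AKR1B10, SLC7A11, ABCC3, ALDH1A1, IDH1 and SLC3A2. AKR1B10, an aldo-keto reductase whose reads may be shared with its near copy AKR1B15, fell with E2 (log2 -1.502, adjusted p = 9.67e-16) and rose 7.25-fold with PPT, a log2 fold change of 2.86 (SE 0.07, adjusted p = 3.8e-21), and 4.74-fold with DPN, a log2 fold change of 2.24 (SE 0.069, adjusted p = 1.76e-19).

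SLC7A11 and SLC3A2 form the transporter that brings in cystine for glutathione synthesis. SLC7A11 fell 5.38-fold with E2, a log2 fold change of -2.43 (SE 0.069, adjusted p = 7.68e-21), and rose with PPT (log2 0.91, adjusted p = 2.25e-12) and with DPN (log2 0.60, adjusted p = 7.74e-09). SLC3A2 had log2 -0.66 (adjusted p = 3.42e-09) with E2, log2 1.56 (adjusted p = 1.87e-16) with PPT and log2 0.53 (adjusted p = 2.35e-07) with DPN. ABCC3, which exports glucuronide and glutathione conjugates, had log2 -0.32 (adjusted p = 0.00247) with E2, log2 2.33 (adjusted p = 1.13e-18) with PPT and log2 1.92 (adjusted p = 6.96e-17) with DPN.

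IDH1, which makes NADPH in the cytosol, fell with E2 (log2 -1.58, adjusted p = 1.48e-17), rose with PPT (log2 0.29, adjusted p = 0.00044) and had log2 0.049 (95% interval -0.079 to 0.18, adjusted p = 0.542) with DPN. ALDH1A1, an aldehyde dehydrogenase, fell with E2 (log2 -1.71, adjusted p = 2.38e-18) and rose with PPT (log2 0.63, adjusted p = 2.15e-09) and with DPN (log2 0.55, adjusted p = 2.64e-08).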

How the data were processed

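The deposited files hold raw read counts per Entrez gene, 1 file per library. The paper's methods state n = 3 for each treatment group, while 2 libraries of each group were analysed here. The authors made strand-specific poly(A) libraries, sequenced single-end reads of HepG2 RNA and aligned them to GRCh38. The submitters' processing notes name GRCh38.p10 and DESeq2. The aligner, the counter, the annotation and the use of strand in counting are not given in the sources used here. Without strand, overlapping antisense genes cannot be told apart.

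Genes were kept by filterByExpr (minimum count 10, total 15), which left 15460 of 26235. All 8 libraries entered one edgeR 4.0.16 quasi-likelihood fit (R 4.3.3) with TMM scaling and no covariate, and 6 contrasts were tested with Benjamini-Hochberg adjustment over all tested genes. The code was tested on simulated data. Alternatives were scaling by RLE or by library size, the filter dropped or set to 1 CPM in 2 libraries, the replicate number as a block, only the 4 libraries compared, leaving out each library, DESeq2 1.42.0 and the study's thresholds. Gene positions are from GENCODE 44 (GRCh38).

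The members and lists were chosen with earlier results of these data known. A member was given library by library where it passed log2 1 in size and an adjusted p of 0.05 against control in at least 1 compound, or was NFE2L2, KEAP1, MAFG, NQO1, HMOX1, GCLC, GCLM, TXNRD1 or SRXN1. Levels of some other members were added after their values had been seen. The 6 genes named from the wider list had the smallest unadjusted p in any compound against control.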

Additional observations from a re-analysis of the deposited data

How the results depend on the processing

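Under the study's thresholds the counts of members were, higher and then lower, 0 and 3 for E2 against control, 5 and 0 for PPT, 4 and 0 for DPN, 0 and 13 for E2 against PPT, 0 and 11 for E2 against DPN, and 0 and 0 for DPN against PPT. Members higher with E2 than with DPN numbered 1 under library-size scaling, with no filter and by DESeq2, against 2 as reported. SOD2, near 0 for E2 against PPT, reversed to log2 -0.21 (adjusted p = 0.0149 by edgeR) under library-size scaling. Leaving out 1 library at a time gave, higher and then lower, 2 to 3 and 25 to 28 members for E2 against control, 20 to 23 and 6 to 7 for PPT, 17 to 18 and 6 to 7 for DPN, 4 and 28 to 30 for E2 against PPT, 1 to 3 and 26 to 28 for E2 against DPN, and 6 to 8 and 11 to 19 for DPN against PPT.

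Deviations of same-numbered libraries had correlations of -0.0645 to 0.0233 between groups. The labels do not say whether same-numbered libraries were prepared together, and these correlations cannot decide it. With the replicate number as a block, the counts were 3 and 28 for E2 against control, 22 and 7 for PPT, 18 and 7 for DPN, 4 and 30 for E2 against PPT, 2 and 27 for E2 against DPN, and 8 and 17 for DPN against PPT. The block ended 2 calls, MAFG with PPT (adjusted p = 0.0575 by edgeR) and EPHX1 for DPN against PPT (adjusted p = 0.0637 by edgeR). Over the alternatives other than the study's thresholds, 4005 of 4140 values per gene stayed on the same side of the adjusted p threshold. Another 103 lost the call, 31 gained it and 1 reversed. The total includes fits that left out a library of neither group compared. Of 276 gene and comparison pairs, 214 were called in the main fit, and 147 of these had a log2 fold change of 0.5 or more in size. Of those 147 pairs, 5 lost the call under any alternative, and the other lost calls were of smaller changes. Values called in both fits kept their direction, while for values called in neither the direction was not counted. Besides the members, these values include some genes of the wider list. The cause of these changes was not tested. In the fits that leave a library out, the smaller number of libraries and the loss of that library's values cannot be told apart. With 2 libraries a group, each of those fits leaves a lone library in its group, which is assumed to vary like the other groups.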

Other observations

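The wider list also held 8 regulators of the pathway other than NFE2L2, KEAP1 and MAFG, and they were taken up after their values had been seen. MAFK, a small MAF protein, rose 4.33-fold with E2, a log2 fold change of 2.12 (SE 0.096, adjusted p = 1.56e-16), and with PPT (log2 0.72, adjusted p = 6.76e-07) and with DPN (log2 0.77, adjusted p = 2.32e-07). BACH1, which represses NRF2 targets in partnership with small MAF proteins, rose with E2 (log2 0.81, adjusted p = 2.9e-08), with PPT (log2 0.42, adjusted p = 0.000567) and with DPN (log2 0.65, adjusted p = 1.72e-06). NFE2L1, a relative of NRF2 that controls proteasome genes, rose with E2 (log2 0.62, adjusted p = 1.82e-09), with PPT (log2 0.30, adjusted p = 0.000266) and with DPN (log2 0.34, adjusted p = 4.36e-05). MAFF rose with E2 (log2 0.96, adjusted p = 1.3e-07) and had log2 0.19 (95% interval -0.061 to 0.45, adjusted p = 0.213) with PPT and log2 -0.0029 (95% interval -0.26 to 0.26, adjusted p = 0.988) with DPN. CUL3, the scaffold of the ligase that KEAP1 serves, fell with E2 (log2 -0.37, adjusted p = 5.2e-05) and with DPN (log2 -0.27, adjusted p = 0.00206), and had log2 -0.011 (95% interval -0.16 to 0.13, adjusted p = 0.915) with PPT. RBX1, its RING subunit, had a log2 fold change of -0.36 (SE 0.11, adjusted p = 0.00769) with E2, a call lost without E2 library 2, at -0.27 (adjusted p = 0.104 by edgeR). BTRC fell with E2 (log2 -0.42, adjusted p = 0.000185). BTRC had 36.5 and 41.5 CPM with E2, 51.2 and 47.6 CPM with PPT and 47.6 and 47.2 CPM with DPN, against 52.6 and 51.65 CPM in control cells. RBX1 had 26.5 and 23.4 CPM with E2, 28.7 and 27.05 CPM with PPT and 38.1 and 29.85 CPM with DPN, against 30.8 and 33.0 CPM in control cells. NFE2L3 had log2 0.18 (95% interval -0.16 to 0.51, adjusted p = 0.349) with E2 and log2 -0.15 (95% interval -0.48 to 0.19, adjusted p = 0.487) with PPT, where it was called lower without PPT library 2, at -0.48. Its change with DPN, a log2 fold change of 0.44 (SE 0.16, adjusted p = 0.0233), was lost without control library 2 or either DPN library, at 0.26 to 0.44. DESeq2 did not call that change either (log2 0.45, adjusted p = 0.0649).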
